A study of Homo sapiens with 6 samples.

Results

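The hexosamine pathway and the cycling of O-GlcNAc were followed through 10 transcripts in MiaPaCa-2, an established human pancreatic ductal adenocarcinoma (PDAC) cell line. The 10 are the enzymes of UDP-GlcNAc synthesis (GFPT1, GFPT2, GNPNAT1, PGM3, UAP1 and its paralog UAP1L1), those that salvage or remove GlcNAc (NAGK and AMDHD2), and the enzymes that put O-GlcNAc on proteins and take it off (OGT and OGA). They were listed by their role, with earlier results of these data known, out of the 60668 genes of the deposited table. All 10 had reads in every library. Cells spent 48 h in control medium (25 mM glucose, 3 libraries) or in low-glucose medium (2.5 mM, 3 libraries), and the labels name no genetic change or drug in either group. The treatment text of the labels states 2.5 mM for all 6 samples, whereas titles and design text set the control apart. Glutamine, the amino donor of GFPT1 and GFPT2, is listed in the methods for standard medium and for the low-glucose medium of other assays, and is not stated for the low-glucose cultures used for RNA. The labels name the table columns of low glucose replicates 1 and 2, and the other 4 libraries were placed by the run of 3 column names for each condition. The samples are described as individual biological replicates of 1 cell line.

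The hexosamine pathway branches off glycolysis at fructose 6-phosphate. GFPT1 or GFPT2 transfers the amide nitrogen of glutamine onto it, GNPNAT1 acetylates the product with acetyl-CoA, PGM3 moves the phosphate, and UAP1 joins the sugar to UDP. The end product, UDP-GlcNAc, feeds N-glycans, other glycans and the single-sugar O-GlcNAc mark on nuclear and cytosolic proteins, which OGT writes and OGA erases. Because it draws on glucose, glutamine, acetyl-CoA and UTP, the pathway is often described as a nutrient sensor.

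Reads on genes numbered 9741183, 10126218 and 10190154 in the control libraries and 10841656, 10595408 and 13733477 in the low-glucose libraries, and values are listed below in this order. Over 10149 genes whose mean reached 100, log2 values differed by a root mean square of 0.142 to 0.154 between low-glucose libraries, 0.201 to 0.335 between control libraries and 0.444 to 0.559 between conditions. The control library of 10126218 reads was the farthest from the other controls. KRT8, KRT18 and VIM, markers of this line, had at least 13896 reads in each library. CDKN2A, which this line lacks, had 0 reads, as had the leukocyte, acinar and islet markers PTPRC, PRSS1, CPA1 and INS. PECAM1 (endothelium) had at most 3 reads and COL1A1 (fibroblast) at most 14, whereas COL1A2, the other fibroblast gene on the list, had 1940 or more. In bulk RNA, a change in the number of transcripts per cell and a change in the make-up of the culture cannot be told apart.

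Under low glucose, 8 of the 10 transcripts passed the test (adjusted p under 0.05, limma's moderated test on log2 of the normalized count plus 1), 6 higher and 2 lower. GFPT1, PGM3, UAP1L1, NAGK, AMDHD2 and OGT rose, UAP1 and GNPNAT1 fell, and GFPT2 and OGA did not pass. Across all 21101 genes tested, 30.9% passed, 14.7% higher and 16.2% lower. With a mean of at least 10 required, 6458 of 15235 genes passed, 2968 higher and 3490 lower. All 10 transcripts lay above that level. With library-size scaling the split over all genes was 3935 higher and 2647 lower, against 3111 and 3417 with the deposited scaling. The low-glucose and control values did not overlap for 8 of the 10 transcripts, 6 with low glucose above control and 2 below, against 43.9% of all genes tested (22.1% above and 21.8% below). The median log2 fold change was 0.56 over the 10 transcripts, 0.05 over all genes tested and -0.0023 over those with a mean of at least 10. The count of 8 was the same without the control library of 10126218 reads, was 7 without the control library of 9741183 reads or any 1 of the low-glucose libraries, and was 5 (4 higher and 1 lower) without a variance trend. The plot of values by library shows each transcript on its own axis.

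**Figure D1:**
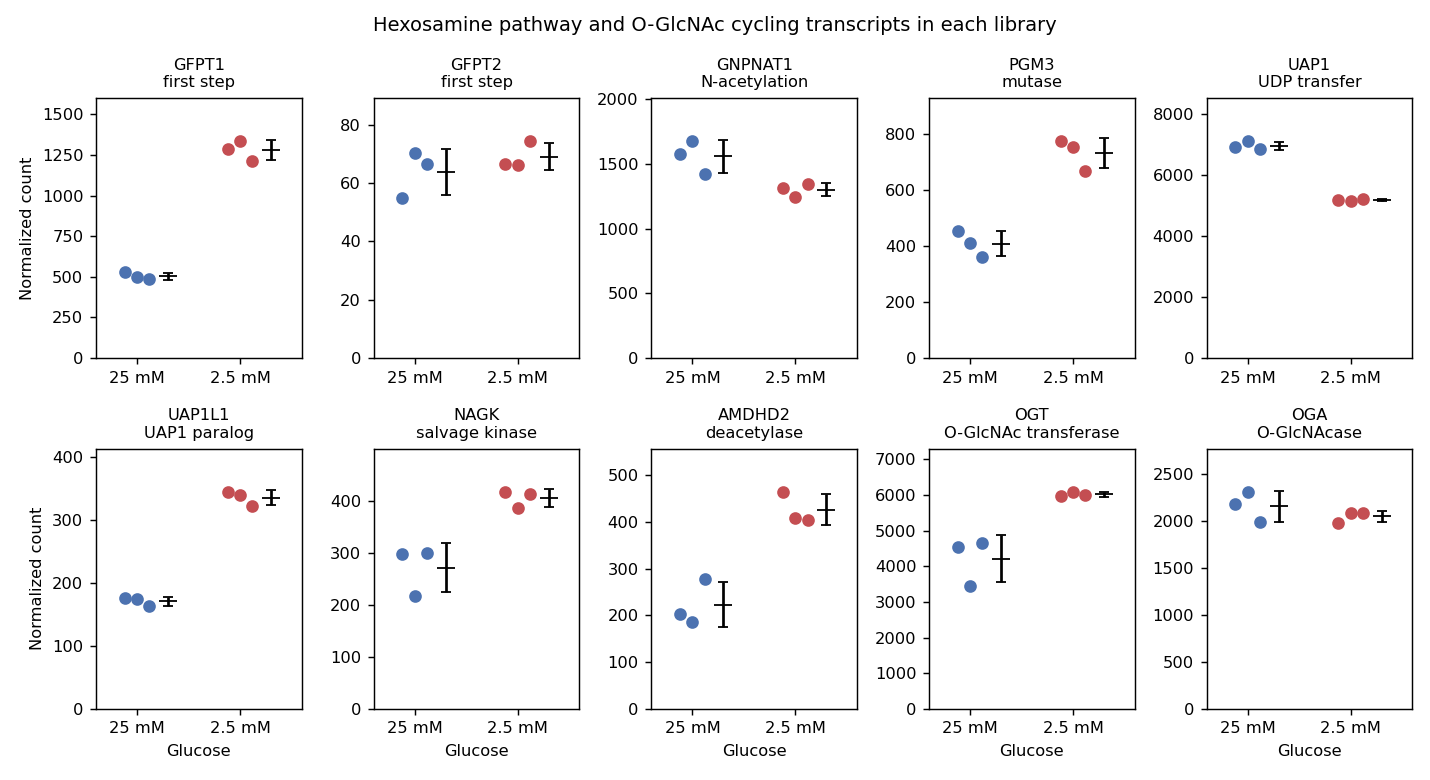
Normalized count (counts divided by the authors' size factor) of each transcript in the 3 control (blue, 25 mM glucose) and 3 low-glucose (red, 2.5 mM) libraries, with the mean and SD (n = 3) in black beside them. The groups do not overlap for 8 of the 10 transcripts. GFPT2 and OGA are the exceptions.

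GFPT1 (ENSG00000198380.12, chr2:69319780-69387250 of hg38, minus strand, 20 exons in the canonical transcript) encodes glutamine-fructose-6-phosphate transaminase, the rate-limiting enzyme of the pathway. Its normalized count was 527, 496 and 485 in control and 1289, 1334 and 1211 in low glucose. Every low-glucose library was far above every control library, and neither group spread by more than a small part of the gap. The mean rose 2.54-fold, from 503 ± 21.9 (SD, n = 3) to 1278 ± 62.1 (SD, n = 3). The log2 fold change was 1.34 ± 0.0803 (SE, adjusted p = 4.56e-08, limma), and 4.98% of the genes tested rose more. It passed in all alternatives, with 1.31 to 1.38 when 1 library was left out and up to 1.47 with quantile normalization.

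The paralog GFPT2 (ENSG00000131459.13, chr5:180300698-180353336, minus strand), which catalyzes the same reaction, was a low-count transcript with 49 to 98 reads per library. Control libraries held normalized counts of 54.9, 70.2 and 66.3, and low-glucose libraries 66.4, 66.2 and 74.3, and the groups overlapped. The log2 fold change was 0.11, with a 95% confidence interval of -0.26 to 0.49 (limma adjusted p = 0.670), and it turned negative (-0.062) with quantile normalization. A rise of the size seen for GFPT1 lies outside this interval. Within each library, log2 GFPT1 minus log2 GFPT2 was 3.24, 2.80 and 2.85 in control and 4.26, 4.31 and 4.01 in low glucose. The difference widened by 1.23, with an exact permutation p of 0.1 (two-sided), the smallest that 3 libraries against 3 can give.

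The 250 bases before the start of GFPT1 are shown because XBP1 and ATF4, transcription factors of the unfolded protein and integrated stress responses, rose in the same libraries (values are given with the pathway lists). The stretch is chr2:69387228-69387477 of hg38 (RefSeq start, GRCh38.p14), read on the minus strand, and capitals mark CCACG or its reverse complement, the core of the ER stress response element.
GFPT1: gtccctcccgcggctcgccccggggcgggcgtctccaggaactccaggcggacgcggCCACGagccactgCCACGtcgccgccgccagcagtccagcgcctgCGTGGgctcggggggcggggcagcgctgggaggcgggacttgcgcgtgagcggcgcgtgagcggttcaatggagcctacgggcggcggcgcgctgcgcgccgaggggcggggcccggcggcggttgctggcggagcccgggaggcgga
CCACG was found 3 times, 193 and 180 bases before the start on the sense strand and 148 bases before it on the other strand. Of 35116 RefSeq windows of this length, 33.5% held CCACG at least once and 2.39% at least 3 times. Among the 9 transcripts with a window, 5 held it, and UAP1, which fell, was one of them. OGT, which rose, held it 2 times, and the window of NAGK, which also rose, held none of the 6 motifs searched. The full element, CCAAT and CCACG with 9 bases between them, was in 0.0740% of windows. It was in none of the 9 transcripts' windows (the table has none for UAP1L1), where only the window nearest the canonical start was searched. TTGCATCA, the core of the amino acid response element that ATF4 binds, was in 0.772% of windows and in none of the 9. These letter matches are descriptions, and binding was not measured.

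GNPNAT1 (ENSG00000100522.10, chr14:52775193-52791668, minus strand) encodes the acetyltransferase of the pathway's next step. Normalized counts were 1578, 1674 and 1419.8 in control and 1316, 1243 and 1346 in low glucose. The groups did not overlap, but the lowest control and the highest low-glucose library lay close together. On the log2 scale the change was -0.26 ± 0.0815 (SE, limma adjusted p = 0.0269). The call was lost with library-size scaling (-0.18, adjusted p = 0.104), with quantile normalization (-0.078, 0.488), without a variance trend (0.134) and when the control library of 9741183 reads (0.0964) or any of the 3 low-glucose libraries was left out (0.0635 to 0.138), over a range of 0.00294 to 0.488. The lncRNA ENSG00000259049 shares 1426 bp of exon with GNPNAT1 on the opposite strand and had 48.1% to 52.5% as many reads. Its log2 fold change was -0.22 (limma adjusted p = 0.0738). With its reads added, an alternative chosen after seeing the data, GNPNAT1 had -0.24 (limma adjusted p = 0.0317).

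PGM3 (ENSG00000013375.16, chr6:83147324-83193936, minus strand), the phosphoglucomutase that converts GlcNAc 6-phosphate to GlcNAc 1-phosphate, rose with GFPT1. Its normalized count was 452, 411 and 362 in control and 772, 752 and 668 in low glucose, with every low-glucose library above every control library. The mean was 408 ± 45.2 (SD, n = 3) in control and 731 ± 55.1 (SD, n = 3) in low glucose, a 1.79-fold rise. The fitted log2 change was 0.84 ± 0.0999 (SE) at a limma adjusted p of 2.18e-05. DOP1A, on the opposite strand with 1546 bp of shared exon, had 35.6% to 53.6% as many reads as PGM3 and rose by 0.44 (limma adjusted p = 0.00409). With the reads of the opposite-strand gene added, an alternative chosen after seeing the data, PGM3 had a log2 fold change of 0.72.

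The 90 bases before the start of PGM3 (chr6:83193266-83193355, minus strand) are shown because they hold as many CCACG cores as the GFPT1 window, again in capitals on either strand.
PGM3: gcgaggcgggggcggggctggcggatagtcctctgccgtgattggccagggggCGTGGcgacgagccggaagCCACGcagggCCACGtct
CCACG was found 37 bases before the start on the other strand, and 18 and 8 bases before it on the sense strand. CCAAT alone was found 50 bases before the start on the other strand. It was in 3 of the 9 windows, beside 32.0% of the RefSeq windows. RWDD2A, a gene on the opposite strand an exon of which lies just beyond this stretch, rose from 37.8 ± 9.89 to 91.9 ± 3.69 (SD, n = 3), a log2 fold change of 1.29 (limma adjusted p = 0.000281) on 27 to 122 reads per library.

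UAP1 (ENSG00000117143.13, chr1:162561722-162601240, plus strand), the pyrophosphorylase that makes UDP-GlcNAc, had the highest normalized count of the 10 in control and fell. Control libraries held normalized counts of 6931, 7117 and 6853, and low-glucose libraries 5203, 5147 and 5219. The libraries of each group lay within a few percent of each other and the groups were well apart. The mean was 6967 ± 135 (SD, n = 3) in control and 5189.6 ± 38.1 (SD, n = 3) in low glucose, or 0.745 of control. The log2 fold change was -0.42 ± 0.0713 (SE, adjusted p = 0.000412, limma) and ranged from -0.28 with quantile normalization to -0.44, with a largest adjusted p of 0.0223. TGACGTG, a motif that XBP1 can bind, was in 1.68% of promoter windows and, among the 9, in that of UAP1, 174 bases before the start. CCACG was found in the same window, 121 bases before the start on the other strand.

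UAP1L1 (ENSG00000197355.11, chr9:137077517-137084539, plus strand), a paralog of UAP1 whose function is less well defined, moved the other way. Normalized counts were 176, 174 and 163 in control and 344, 339.8 and 321 in low glucose. Each group was tight, and the mean rose 1.96-fold, from 171 ± 7.19 (SD, n = 3) to 335 ± 12.2 (SD, n = 3). On the log2 scale the change was 0.97 ± 0.103 (SE, limma adjusted p = 8.10e-06), and it passed in all alternatives without a fold criterion. Per length, UAP1 remained far above UAP1L1, at 37.1 to 39.7 times its TPM in the control libraries and 14.2 to 15.3 times in the low-glucose libraries.

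The log2 fold changes of the 10 transcripts are plotted side by side, with the values from each library left out in turn.

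**Figure D2:**
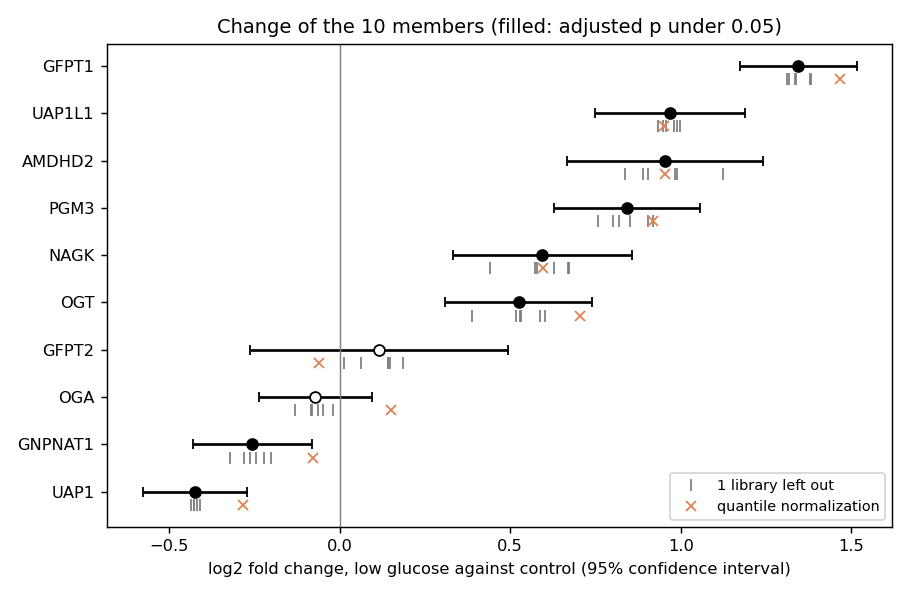
Log2 fold change of each transcript, low glucose against control, with its 95% confidence interval (limma, 3 libraries against 3). Filled points passed an adjusted p of 0.05, grey ticks give the value with 1 library left out, and crosses give quantile normalization. GFPT1 (1.34) lies at the top and UAP1 (-0.42) at the bottom, and quantile normalization moved GFPT2 and OGA across 0.

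AMDHD2 and NAGK handle GlcNAc outside de novo synthesis. AMDHD2 (ENSG00000162066.15, chr16:2520357-2531422, plus strand) removes the acetyl group from GlcNAc 6-phosphate and so runs against GNPNAT1. Its normalized count was 204, 186 and 277 in control and 465, 409 and 405 in low glucose. The control libraries were unequal, and all of them lay below the low-glucose libraries. The mean rose 1.92-fold, from 222 ± 48.2 (SD, n = 3) to 426 ± 33.2 (SD, n = 3), and the log2 change was 0.95 ± 0.134 (SE, limma adjusted p = 9.67e-05). CEMP1, which shares 1383 bp of exon with AMDHD2 on the opposite strand, had 25.1% to 45.4% as many reads and rose by 1.29 (limma adjusted p = 0.000718). With its reads added AMDHD2 rose by 1.04. ENSG00000259784, a gene on the same strand, shares 378 bp of exon with AMDHD2 and had 0 reads in every library. How reads on these shared bases were assigned is not known.

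The 150 bases before the start of AMDHD2 (chr16:2520221-2520370, plus strand) are shown for a repeat that sets this window apart from most others. Capitals mark CACGTG, the palindromic E-box core bound by several factors with basic helix-loop-helix domains.
AMDHD2: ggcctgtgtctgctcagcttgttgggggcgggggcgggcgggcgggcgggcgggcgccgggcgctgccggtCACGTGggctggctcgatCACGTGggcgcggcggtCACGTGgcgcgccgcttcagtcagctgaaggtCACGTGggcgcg
CACGTG occurred 4 times, 79, 61, 44 and 12 bases before the start. One CACGTG or more was found in 6.34% of the 35116 windows, and 4 or more in 5 windows (0.0142%). Each of the 4 copies overlaps a CCACG on the other strand, so AMDHD2's 5 matches to CCACG are largely the same bases. Among the 9 transcripts with a window, CACGTG was found for AMDHD2 only. This stretch, too, leaves out the part of the window with an exon of another gene. ATP6V0C, the gene next to AMDHD2, had a log2 fold change of 0.35 (limma adjusted p = 0.461) on 28 to 120 reads per library. It did not pass, and its groups overlapped.

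NAGK (ENSG00000124357.13, chr2:71064344-71079808, plus strand), the kinase that phosphorylates GlcNAc recovered from lysosomal breakdown and the diet, rose as well. Control libraries held normalized counts of 297, 216 and 299, and low-glucose libraries 417, 385 and 412. The low-glucose libraries agreed closely, and the control library of 10126218 reads lay apart from the other 2. The mean was 271 ± 47.1 (SD, n = 3) in control and 405 ± 16.9 (SD, n = 3) in low glucose, a 1.50-fold rise. The fitted log2 change was 0.59 ± 0.123 (SE) at a limma adjusted p of 0.00201 and 0.44 without that library. Without a variance trend the adjusted p was 0.0521, in a range of 0.000336 to 0.0521.

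OGT (ENSG00000147162.14, chrX:71533087-71575892, plus strand), the transferase that attaches O-GlcNAc to serine and threonine, rose. Normalized counts were 4547, 3454 and 4649 in control and 5972, 6085 and 5988 in low glucose. The low-glucose libraries were almost equal, and of the control libraries that of 10126218 reads was the lowest. The mean was 4217 ± 662 (SD, n = 3) in control and 6015 ± 61.3 (SD, n = 3) in low glucose, a 1.43-fold rise. The log2 fold change was 0.53 ± 0.101 (SE, adjusted p = 0.00120, limma). Without the control library of 10126218 reads it was 0.39 (adjusted p = 1.51e-06), and without a variance trend its adjusted p was 0.0554, the largest of the alternatives.

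OGA (ENSG00000198408.14, chr10:101784443-101818465, minus strand), the hydrolase that removes the mark, did not pass. Its normalized count was 2176, 2305 and 1980.4 in control and 1979.7, 2078 and 2081 in low glucose, and the groups overlapped. The log2 fold change was -0.071, with a 95% confidence interval of -0.24 to 0.10 (limma adjusted p = 0.533). It was 0.0094 with library-size scaling and 0.15 with quantile normalization, so its direction is not fixed by these data. A difference between both genes within a library is free of the size factor. Within each library, log2 OGA minus log2 OGT was -1.06, -0.58 and -1.23 in control and -1.59, -1.55 and -1.52 in low glucose. The mean difference moved by -0.60, with an exact permutation p of 0.1 (two-sided), again the smallest possible, and by -0.41 without the control library of 10126218 reads.

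Levels were compared between genes as TPM, the recovered reads per length of the canonical transcript scaled to the same sum in every library. In control, UAP1 stood at 356 ± 16.7 (SD, n = 3) and OGT at 141 ± 19.6 (SD, n = 3). OGA (75.7 ± 7.86) and GNPNAT1 (73.3 ± 8.09) overlapped in control (SD, n = 3). NAGK (20.7) stood above AMDHD2 (12.7), PGM3 (12.2) and GFPT1 (10.5), and the last 3 overlapped with a neighbour in that order. UAP1L1 (9.27) and GFPT2 (3.82) were the lowest. In low glucose the order of the 5 highest was the same, with UAP1 at 259 ± 4.59 (SD, n = 3) and OGT at 196 ± 1.72 (SD, n = 3). GFPT1 moved from position 8 to position 6, at 26.1 ± 0.989 (SD, n = 3), where it overlapped with AMDHD2 (23.8 ± 1.81). With the union of all annotated exons as the length, GNPNAT1 (117) stood above OGA (89.6) and PGM3 (5.60) fell below UAP1L1 (9.78) in control. NAGK (9.18) fell to position 8, and GFPT1 (17.1) held position 5 in both groups, so its move and the order of these genes rest on the length used.

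**Figure D3:**
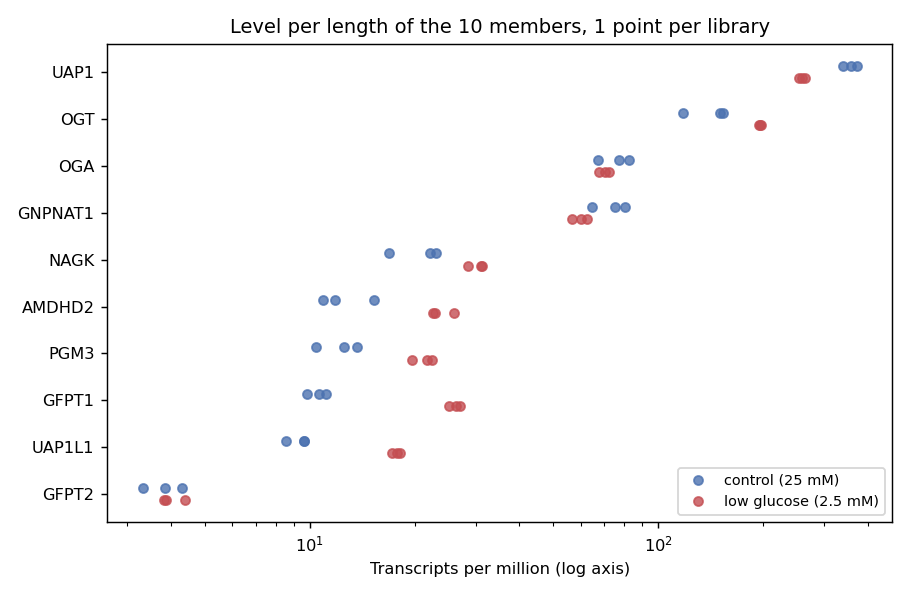
Level per length of each transcript in TPM (log axis), 1 point per library, control in blue and low glucose in red, ordered by the control mean. UAP1 and OGT are the highest in both groups and GFPT2 the lowest, and the enzymes from NAGK down to UAP1L1 shift to higher levels in low glucose.

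Around the 10 transcripts, 61 further genes were grouped by role, also with earlier results of these data known, and 59 of them were tested. Of these, 33 passed, 16 higher and 17 lower, beside the 30.9% and the median log2 fold change of 0.05 over all genes tested. In the list on entry and exit of hexosamine phosphates, 4 of 8 passed, 2 in each direction, with a median of 0.11. GNPDA1, a deaminase that returns glucosamine 6-phosphate to glycolysis, had a log2 fold change of 0.27 (limma adjusted p = 0.0151), and its relative GNPDA2 had -0.21 (0.301). HK2 rose by 0.44, and HK1 (-0.43) and GPI (-0.36), the isomerase that forms fructose 6-phosphate, were lower. None of these 3 passed without a variance trend (adjusted p of 0.0596 to 0.0686), nor did GPI with quantile normalization (0.0790). The call of GNPDA1 was lost without a variance trend (0.0946) and on leaving out the control library of 9741183 reads (0.0616) or any 1 of the low-glucose libraries (0.0506 to 0.0833). SLC2A1, the main glucose transporter of many tumour cells, had 0.09 and did not pass.

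In the sialic acid branch, which starts from UDP-GlcNAc, 2 of 7 passed. GNE, its rate-limiting enzyme, had a log2 fold change of -0.34 (limma adjusted p = 0.0190), a call lost with library-size scaling (0.0558), with quantile normalization (0.0527), without a variance trend (0.121), and on leaving out the control library of 9741183 reads (0.0779) or any 1 low-glucose library (0.0513 to 0.0890). NPL, a lyase that degrades sialic acid, rose by 0.95 (limma adjusted p = 0.0116) on 18 to 84 reads per library, and lost its call without a variance trend (0.0680) and without the low-glucose library of 13733477 reads (0.0535). The median of the list was -0.03.

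Among the enzymes that interconvert UDP-sugars, 5 of 10 passed, 4 higher and 1 lower, with a median of 0.28. GALT (0.88), GALK2 (0.60) and UGDH (0.40) had the largest changes among those that passed. Without the low-glucose library of 13733477 reads GALT (limma adjusted p = 0.0824) and GALK2 (0.0524) no longer passed, nor did GALK2 without that of 10841656 reads (0.0537). Without a variance trend none of the 3 passed (0.0676 to 0.0786).

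Of the 19 tested genes for transport of UDP-GlcNAc and its use in glycans, 11 passed, 5 higher and 6 lower, with a median of -0.21. SLC35D2, a Golgi nucleotide-sugar transporter, rose by 0.95 (limma adjusted p = 0.000377), and SLC35B4, another transporter, had -0.51 (0.00207). DPAGT1, which starts the N-glycan precursor with UDP-GlcNAc, rose by 0.43 (0.00211). MGAT3, which adds the bisecting GlcNAc, had -1.03 (0.0110) on 14 to 34 reads per library, and lost its call without low glucose replicate 1 (0.0568).

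Of the 9 partners and substrates of OGT and OGA, 6 passed and all 6 were lower, with a median of -0.42. Over all genes tested, 16.2% passed as lower. The number past the threshold in this list was 4 with library-size scaling and 5 with quantile normalization. HCFC1, a chromatin cofactor that OGT cleaves and modifies, had a normalized count of 2433 ± 219 (SD, n = 3) in control and 1557 ± 20.3 (SD, n = 3) in low glucose, and the log2 change was -0.64 ± 0.0804 (SE, limma adjusted p = 3.61e-05). TET2 (-0.73) and TET3 (-0.58), dioxygenases that bind OGT, were lower too, with limma adjusted p-values of 0.00151 and 0.00209, and TET3 did not pass without a variance trend (0.0520). TRAK2 (0.14) and PPP1R12A (-0.12) did not pass, nor did TET1 (-0.90), which had 13 to 32 reads per library.

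The short list of stress factors and targets, written like the other lists with earlier results of these data known, had 5 of 6 past the test, 4 of them higher. XBP1, the transcription factor that is activated by splicing under ER stress, rose from 948 ± 37.9 (SD, n = 3) to 2384 ± 57.5 (SD, n = 3), a log2 fold change of 1.33 (limma adjusted p = 1.86e-08). ATF4 rose by 1.04 (limma adjusted p = 7.66e-06), HSPA5, the ER chaperone BiP, by 1.66 (1.45e-08), and ASNS, an ATF4 target, by 1.09 (0.000120). SP1 had -0.31 (limma adjusted p = 0.0436). ATF6, another transcription factor of the list, had 0.19 (limma adjusted p = 0.0815) and did not pass. Gene-level counts do not tell spliced from unspliced XBP1.

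**Figure D4:**
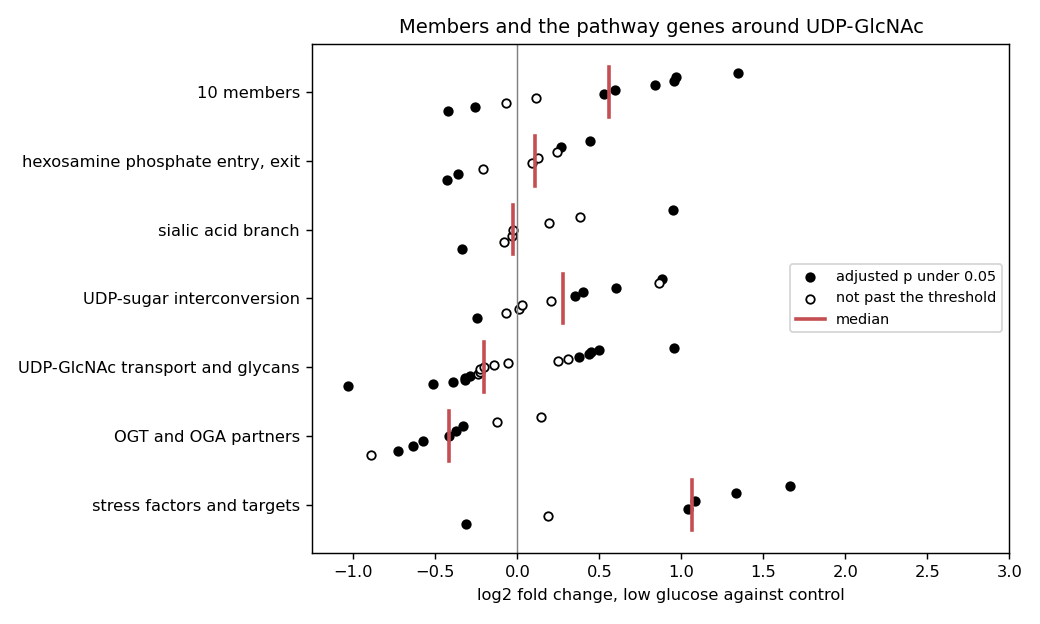
Log2 fold change, low glucose against control, of the 10 transcripts and of the tested genes in each pathway list, 1 point per gene. Filled points passed an adjusted p of 0.05, open points did not, and the red line is the median. The medians run from -0.42 in the list of OGT and OGA partners to 1.06 in the list of stress factors and targets, with 0.56 for the 10 transcripts.

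Genes whose pattern lay closest to that of GFPT1 and of OGT were found by the Euclidean distance of log2 values, relative to the control mean, over the 6 libraries and 9161 protein-coding genes with a mean of at least 100. For GFPT1 these were HMOX1 (distance 0.145), which encodes heme oxygenase 1, SLC6A9 (0.152), a glycine transporter, and XBP1 (0.180). For OGT they were CCNL1 (0.0964), C12orf57 (0.0997) and UFM1 (0.103). The 6 libraries form 2 groups, so a small distance mostly reflects a similar fold change and the same spread among the controls.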

How the data were processed

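RNA-seq of MiaPaCa-2 cells (3 control and 3 low-glucose libraries) was analysed from 1 table. Per the methods and labels, strand-specific libraries were sequenced as paired ends, trimmed with Trim Galore and mapped to hg38 with STAR 2.7.0e, and the authors compared conditions with DESeq2. RSEM is in the list of software for the RNA-seq, but which tool made these counts, its strand setting and the annotation are not given in the sources used here, so genes that share exon on opposite strands can share reads. Deposited values (unit: signal) are reads per gene after the authors divided each library by its own size factor. In each library 100% of values were within 0.001 of a whole multiple of the smallest value, so reads were recovered, and median-of-ratios factors over 17906 genes matched the deposited scaling. Of 60668 identifiers, 99.4% matched Gencode v44, the source of symbols, coordinates and lengths. Promoter sequences are from RefSeq (GRCh38.p14), with windows for 9 of the 10 members. PGM3 had 2 windows, UAP1 3 and NAGK 2, and only the window nearest the canonical start was searched. The share over 35116 windows counts every window.

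Genes with a mean of at least 1 (21101) were tested as log2(value + 1) with limma 3.58.1 in R 4.3.3 (lmFit, eBayes with trend, two-sided, Benjamini-Hochberg over all genes, threshold 0.05). The pseudocount understates changes of low genes. Within-library differences between 2 genes were compared with exact permutation tests (scipy 1.17.1). Alternatives were library-size, TMM and quantile scaling, no filter, a mean of at least 10, a pseudocount of 0.1, no variance trend, edgeR 4.0.16 and DESeq2 1.42.0 on the recovered reads (6554 of 15322 and 5486 of 17421 genes called), a required log2 change of 1 in either direction, and leaving out libraries singly. Union-of-exon lengths and adding the reads of opposite-strand genes were chosen after seeing the data. Promoter windows were searched for 6 motifs, and the stretches of PGM3 and AMDHD2 were picked for their matches. The scripts were tested on simulated data.

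The 10 members and the pathway lists were chosen with earlier results of these data known. All members are named. Of the listed genes, XBP1, ATF4, HSPA5, HCFC1, GNPDA1, GNPDA2, GNE, DPAGT1 and the 3 largest changes past the threshold in each list are named by rule, and 1 further gene of the rule is not reported here. SLC2A1, TRAK2, PPP1R12A, TET1, SP1, ATF6 and genes overlapping or next to a member were named after their values were seen.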

Additional observations from a re-analysis of the deposited data

How the results depend on the processing

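No paired analysis was possible because, although sample titles number all replicates, the table columns could be tied to a number for low glucose replicates 1 and 2 alone. The number of members past the threshold was 5 without a variance trend, 1 (GFPT1) with a required log2 change of 1 in either direction (the fold criterion), and 7 to 8 with 1 library left out. The number higher was 6 except without a variance trend (4) and with the fold criterion (1), and the number lower was 1 with library-size scaling, with quantile normalization and without a variance trend, 0 with the fold criterion, and 1 to 2 with 1 library left out. Of the 59 tested pathway genes, 15 passed without a variance trend, 5 with the fold criterion and 22 to 37 with 1 library left out. Without a variance trend the lists held 0 (hexosamine phosphates), 0 (sialic acid), 1 (UDP-sugars), 7 (transport and glycans) and 3 (OGT and OGA partners) genes past the threshold, and with the fold criterion 0, 0, 0, 1 and 0. With 1 library left out the range was 3 to 5, 0 to 3, 2 to 7, 7 to 13 and 4 to 7, and 4 to 5 for the stress list. The members lower numbered 1 without the control library of 9741183 reads or any low-glucose library. Sialic acid genes numbered 0 once the low-glucose library of 13733477 reads was dropped, and 1 without either of the other low-glucose libraries or the control library of 9741183 reads. UDP-sugar genes numbered 3 and 2 without the low-glucose libraries of 10841656 and 13733477 reads, and transport and glycan genes 7 without the former. The cause of these losses was not tested, other than that the fold criterion takes a subset by construction. Without a variance trend 4090 genes passed over the whole table, against 6528. GFPT2 (-0.062 with quantile normalization) and OGA (0.0094 with library size, 0.15 with quantile normalization) changed direction, neither past the threshold. The OGA-OGT difference stayed between -0.73 and -0.41 and the GFPT1-GFPT2 difference between 1.15 and 1.53. The TPM ratios in control moved with the union of exons from 2.80 to 4.26 (GFPT1 over GFPT2), 38.4 to 46.5 (UAP1 over UAP1L1) and 1.88 to 1.46 (OGT over OGA). With 49 to 98 reads per library, depth limits GFPT2 most among the 10.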
